A study of Homo sapiens with 9 samples.

Results

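The proteasome genes were taken as the genes whose symbol is PSM followed by a letter from A to G and a number, as printed on the array. The choice found 48 of 34623 gene names on the array, with 64 of 42405 probes, and 46 genes with 59 probes were bright enough to be tested, among 29134 tested probes. NT2 cells, a line of human embryonal carcinoma stem cells that turns toward neural progenitors with retinoic acid, were kept for 4 days in medium with 10 µM retinoic acid. All 9 samples came from cells given retinoic acid. Of these samples, 3 had no further compound (control), 3 had 1 µM paraoxon and 3 had 5 µM mipafox. Both are organophosphorus compounds that inhibit esterases. RNA of each sample was hybridised to a one-colour Agilent array, with arrays named A, B and C in each treatment. The GEO record calls the 3 samples of a treatment biological replicates and the methods call them technical replicates, so p-values measure the spread between these arrays only.

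The control arrays shared slide 1 with mipafox A. The paraoxon arrays were on slide 2 together with mipafox B and mipafox C. Slide and paraoxon therefore cannot be told apart in a direct comparison with control. The share of probes well above background ranged from 65.7% to 73.6% over the arrays. All 8 embryonal carcinoma markers on the array were well above background on all 9 arrays, as were 4 of 5 neural progenitor markers, with SOX1 not tested. Of 6 neuron markers, TUBB3, MAP2, RBFOX3 and DCX were well above background on all 9 arrays, SYP on 6 and STMN2 on 2. Of 4 glia markers, MBP and S100B were above it on all 9 arrays, AQP4 on 1 and GFAP on 0. The 4 blood and immune markers were all tested, and 1 of them, PTPRC, had a higher signal on the 3 paraoxon arrays (log2 fold change 1.15, SE 0.21, adjusted p = 0.0764 in limma); its part in the values below was not tested.

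The proteasome is the protease that degrades ubiquitin-tagged proteins in the cytosol and nucleus. Its 20S core is a barrel of outer alpha rings and inner beta rings, and 3 beta subunits carry the cutting sites. Immune cells and cells exposed to interferon replace those subunits with inducible ones. The 19S cap recognises ubiquitin chains, unfolds the substrate with a ring of ATPases and feeds it into the core, while activators open the core without the cap and chaperones assist assembly. When proteasome capacity is short, the transcription factor NFE2L1 raises most subunit genes together.

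Each array probe is a 60-base DNA sequence, and the signal belongs to that stretch of the transcript. The probes of the catalytic subunits, of the ATPase PSMC4 and of 3 genes whose probes gave unlike values are shown, since the results turn on them. Letters are in lower case throughout because no part of a probe is singled out, and of 5 probes the first 30 bases are given.
PSMB5 probe, chr14:23495485-23495544, minus strand: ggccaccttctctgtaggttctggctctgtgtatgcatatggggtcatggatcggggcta
PSMB6 probe, chr17:4701404-4701589, plus strand, across an exon junction: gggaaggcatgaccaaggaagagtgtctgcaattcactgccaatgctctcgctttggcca
PSMB7 probe, chr9:127115891-127115950, minus strand: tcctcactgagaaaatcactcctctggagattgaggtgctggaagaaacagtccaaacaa
PSMB8 probe, chr6:32810023-32810490, minus strand, across an exon junction: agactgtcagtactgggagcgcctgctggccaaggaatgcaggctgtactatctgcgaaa
PSMB9 probe, chr6:32823918-32823977, plus strand: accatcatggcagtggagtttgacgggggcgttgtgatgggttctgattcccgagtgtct
PSMB10 probe, chr16:67968412-67968471, minus strand, first 30 bases: gtggagtaagctgaggcttagagcttggaa
PSMC4 probe, chr19:40485988-40486047, plus strand: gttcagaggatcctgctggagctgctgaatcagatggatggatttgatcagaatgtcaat
PSMD2 upstream probe, chr3:184023570-184023629, plus strand: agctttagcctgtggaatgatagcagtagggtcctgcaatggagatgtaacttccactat
PSMD2 downstream probe, chr3:184026780-184026839, plus strand, first 30 bases: ctcctgctcttttgttactgagtgagataa
PSMD5 upstream probe, chr9:123583184-123583243, minus strand: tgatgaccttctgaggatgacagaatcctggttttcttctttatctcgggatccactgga
PSMD5 downstream probe, chr9:123579000-123579059, minus strand, first 30 bases: aggataatctttcttttcattgacaacacc
PSMF1 most upstream probe, chr20:1106195-1106254, plus strand: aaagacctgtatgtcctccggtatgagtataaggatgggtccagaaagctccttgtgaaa
PSMF1 next probe, chr20:1115812-1115871, plus strand: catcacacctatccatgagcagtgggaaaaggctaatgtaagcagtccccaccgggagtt
PSMF1 probe before the last, chr20:1147718-1147777, plus strand, first 30 bases: ttttttgtgagtttccttgcatcaaggaca
PSMF1 most downstream probe, chr20:1148367-1148426, plus strand, first 30 bases: agttgatggacagttgggttgtttctacaa
Coordinates are those of the array annotation on build hg19, and sequences are those of the scanner output.

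No proteasome gene passed the test with either compound. The call required an adjusted p under 0.05 in limma and a log2 fold change beyond 1. With paraoxon 0 of 59 proteasome probes were called, where 0% of all 29134 tested probes were called; the same counts, 0 of 59 and 0%, were found with mipafox and between the compounds, and also without the limit on the fold change. At an unadjusted p under 0.05, 3 of 59 proteasome probes (5.08%) passed with paraoxon, against 13.3% of all tested probes. These were the probe of PSMC4 and the upstream probes of PSMD2 and PSMD5, all lower than in control. With mipafox 1 of 59 (1.69%) passed, the upstream PSMD2 probe, against 6.96% of all probes. Between paraoxon and mipafox, whose doses differ, 1 of 59 passed, PSMC4, against 4.02%.

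The signals of 59 proteasome probes rarely separated the treatments completely. The 3 paraoxon arrays all lay above the 3 control arrays for 1 of 59 probes (1.69%), that of PSMD1, against 12.4% of all tested probes. They all lay below for 4 of 59 (6.78%), those of PSMC4 and PSMD11 and the upstream probes of PSMD2 and PSMD5, against 11.1%. With mipafox 0 of 59 probes lay wholly above control, against 5.34%, and 3 of 59 (5.08%) wholly below, against 6.46%: PSMB3 and the upstream probes of PSMD2 and PSMD5. Paraoxon arrays lay wholly above mipafox arrays for 2 of 59 probes, against 5.12%, and wholly below for 2 of 59, against 3.84%.

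For the values that follow, a gene is represented by its brightest tested probe. Signals are log2 values relative to the 75th percentile of the array, and levels of different probes are not comparable. The 46 proteasome genes changed little in the fit without the slide. With paraoxon 33 were lower and 13 higher, where 48.1% of all tested probes were lower. The median log2 fold change was -0.08, with a range from -0.44 to 0.29, where the median of all tested probes was 0.01. With mipafox 32 were lower and 14 higher, where 49.8% of all tested probes were lower. The median was -0.05, with a range from -0.31 to 0.31, where the median of all probes was 0.00. Both comparisons use the same 3 control arrays.

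The fitted intervals were narrow for the brightest probe of each gene, in a fit without the slide. There the 95% interval of the log2 fold change lay within 1 in either direction, a 2-fold change, for 46 of 46 genes with paraoxon and 46 of 46 with mipafox, and over all tested proteasome probes for 56 of 59 (94.9%) with each compound, against 77.5% and 82.2% of all tested probes. The interval of the upstream PSMD2 probe passed this limit, reaching -1.40 with paraoxon and -1.14 with mipafox. The interval lay within 0.5 for 24 genes (52.2%) with paraoxon and 25 (54.3%) with mipafox, and for 47.5% and 49.2% of the proteasome probes, against 25.6% and 28.6% of all probes. The fitted value was within 0.2 for 39 genes (84.8%) and 79.7% of the proteasome probes with paraoxon, against 52.5% of all probes. With mipafox it was within 0.2 for 42 genes (91.3%) and 86.4% of the proteasome probes, against 60.4%. All 59 tested proteasome probes were well above background on all 9 arrays, as were 90.4% of all tested probes. Their SD between arrays of a treatment had a median over genes of 0.22, against 0.25 over all probes.

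**Figure D1:**
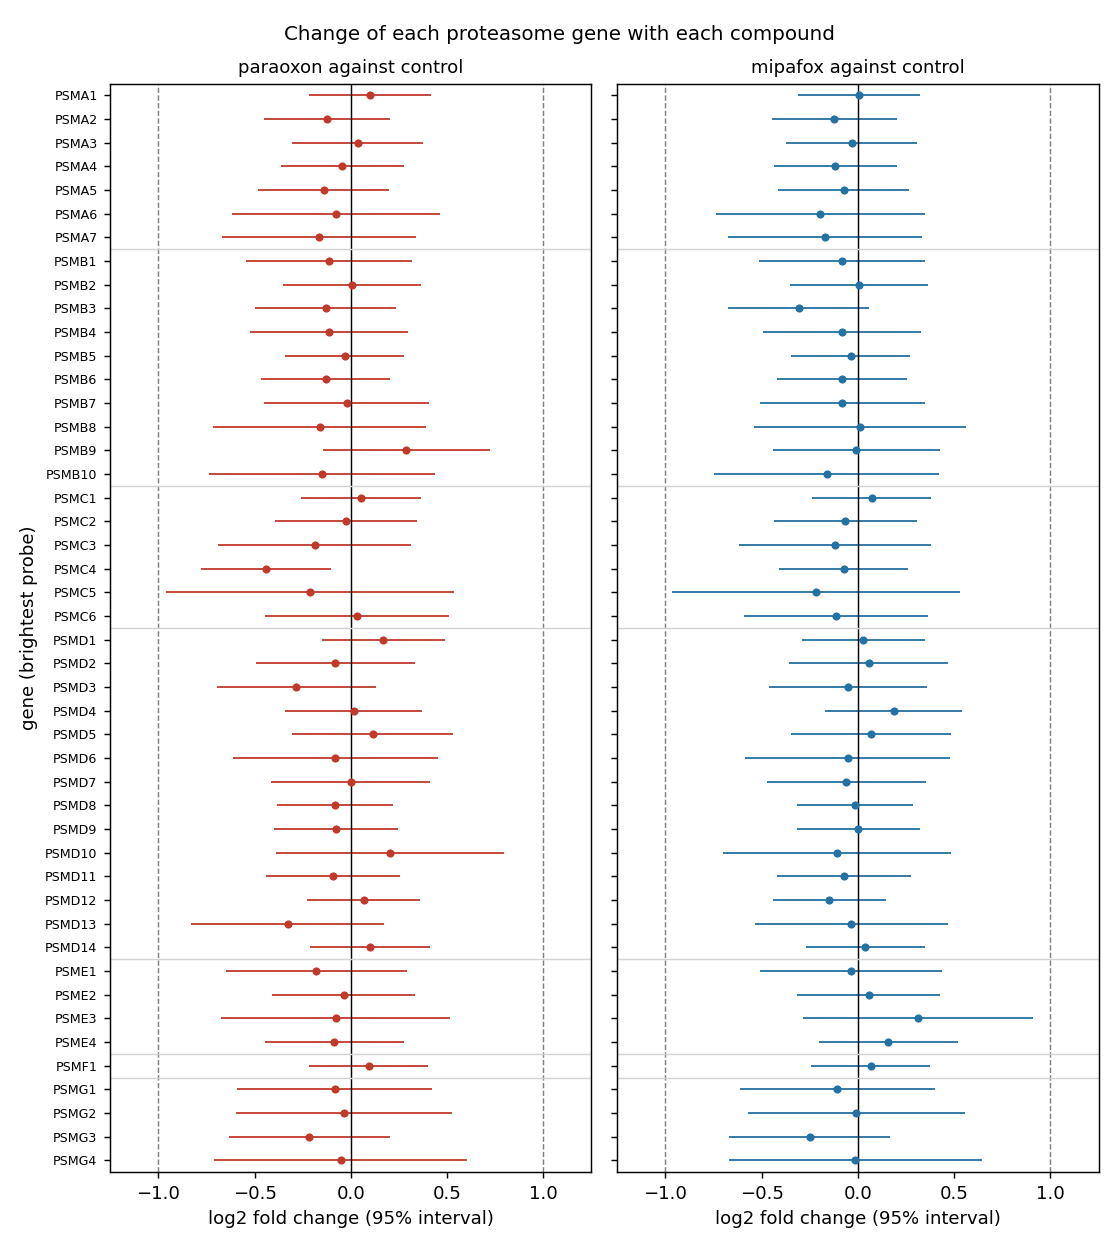
Log2 fold change of each of the 46 proteasome genes with paraoxon (left) and mipafox (right) against control on the horizontal axis, by gene on the vertical axis, with points for the limma estimate and bars for its 95% interval (3 arrays per treatment). Dashed lines mark a log2 fold change of 1 in either direction, and no bar reaches them; PSMC4 with paraoxon is the only gene whose bar excludes 0.

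The mipafox arrays differed among themselves more than the treatments did. The deviation of a gene from its control mean had a median over the 46 genes of -0.05, 0.02 and 0.06 on the control arrays, in the order A, B, C. It was -0.09, 0.00 and -0.01 on the paraoxon arrays and 0.15, -0.09 and -0.20 on the mipafox arrays in the same order. The SD of these medians was 0.06 in control, 0.05 in paraoxon and 0.18 in mipafox (n = 3 arrays each). Mipafox A was the highest of the 9 arrays for 23 of 46 genes and mipafox C the lowest for 24. Over all tested probes the medians were 0.06 on mipafox A and -0.09 on mipafox C, in the same direction and smaller.

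Mipafox A and mipafox C lay on different slides, so the value of the direct comparison depends on the arrays set against each other. On slide 1, mipafox A exceeded the control mean with a median of 0.15 over the genes, higher for 30 of 46, while all probes had a median of 0.06 with 42.2% lower. On slide 2, paraoxon exceeded the mean of mipafox B and C with a median of 0.08, higher for 34 of 46, while all probes had a median of 0.05 with 41.9% lower. Mipafox B and C together were lower than mipafox A, with a median of -0.26 and lower values for 34 of 46 genes. All probes had a median of -0.08 there, with 57.5% lower. With the slide as a fixed block in the fit, the median change turned to 0.23 with paraoxon and 0.15 with mipafox. In that fit the mipafox change of a gene is mipafox A minus the control mean. The paraoxon change adds the difference within slide 2 to it, so both depend on mipafox A. Without mipafox C, the median with mipafox was 0.08. With the authors' processed values of the same arrays, the median with paraoxon was 0.0285 in place of -0.0783. The sign of the median change thus depended on the slide term with both compounds, on single arrays with mipafox and on the processing with paraoxon. Slide and paraoxon cannot be told apart.

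**Figure D2:**
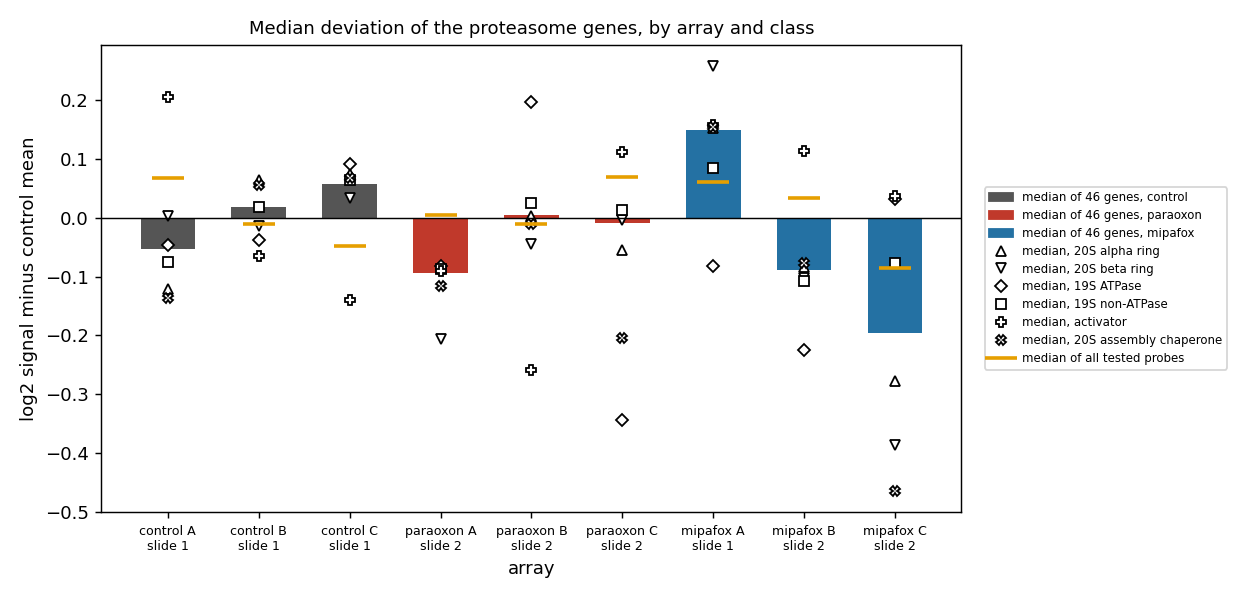
Median deviation from the control mean (log2, vertical axis) on each array (horizontal axis, with its slide): bars give the median of 46 proteasome genes, coloured by treatment, open symbols the median of each subunit class and orange lines the median of all tested probes. Mipafox A stands highest at 0.15 and mipafox C lowest at -0.20, and the ATPases (diamonds) are at -0.34 on paraoxon C while the beta ring is at -0.39 on mipafox C.

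The classes of subunits varied along different arrays. The 10 beta ring genes had a median of 0.26 on mipafox A and -0.39 on mipafox C, and the 7 alpha ring genes 0.15 and -0.28. The 6 ATPase genes went another way, with medians of -0.08 on mipafox A and 0.03 on mipafox C, and of 0.20 on paraoxon B and -0.34 on paraoxon C. The median of the 14 remaining cap genes stayed between -0.11 and 0.08 on every array. Single genes among them lay outside this range, such as PSMD13 at -0.87 on paraoxon C and PSMD10 at 0.46 on mipafox C. The 4 activator genes had medians of 0.21 on control A and -0.26 on paraoxon B.

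**Figure D3:**
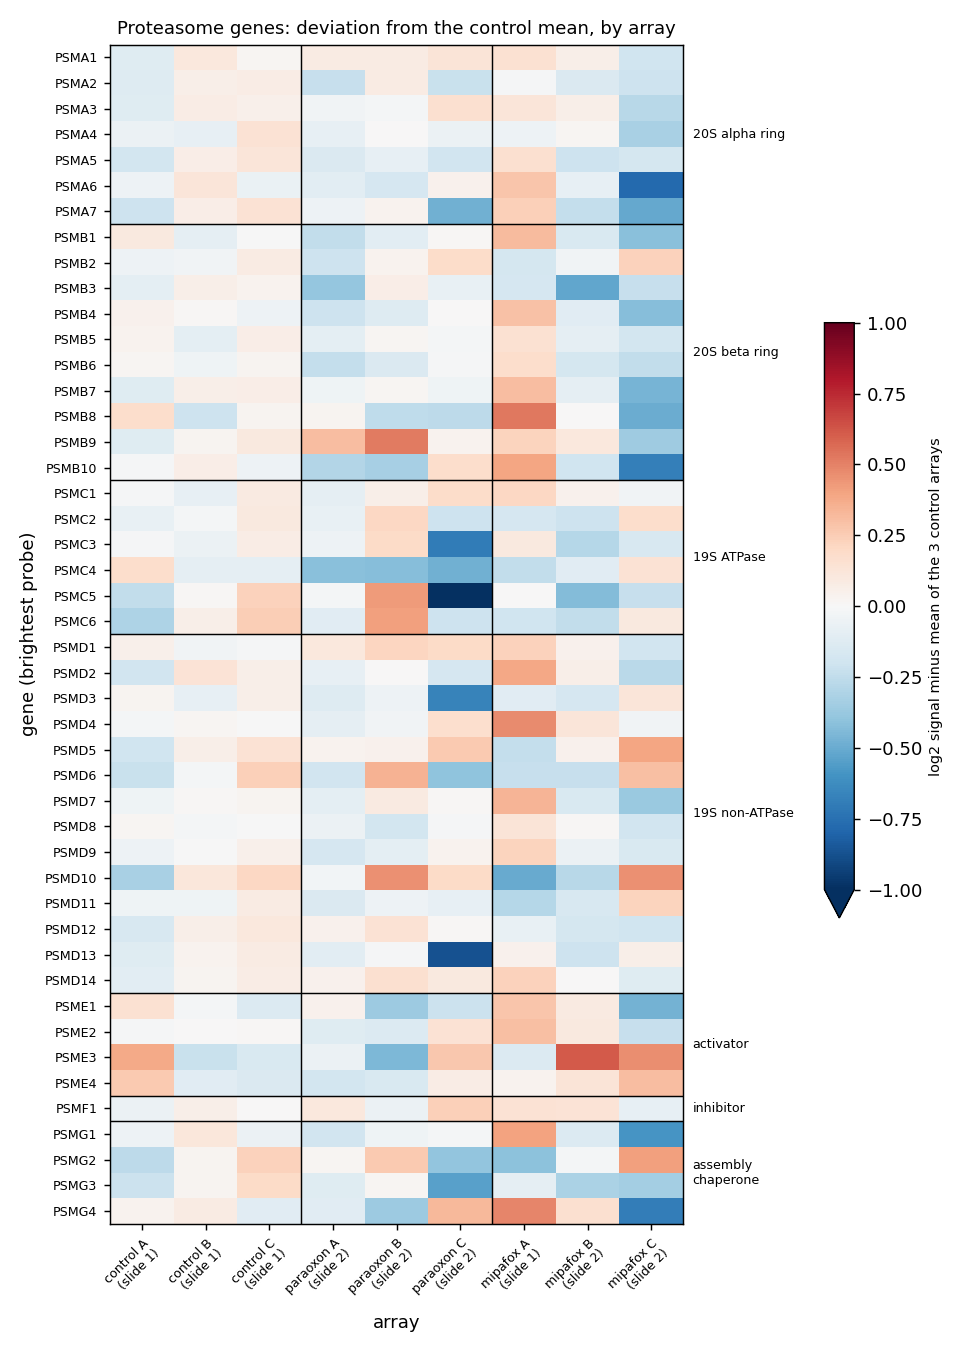
Deviation of each proteasome gene (rows, by class) from its mean over the 3 control arrays on each array (columns, with the slide), as a colour scale in log2 units from -1 to 1. Most core genes are red on mipafox A and blue on mipafox C, and PSMC3, PSMC5, PSMD3 and PSMD13 are darkest blue on paraoxon C.

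In the alpha ring, whose subunits form the gate of the core, the median log2 fold change of 7 genes was -0.08 with paraoxon (5 lower) and -0.12 with mipafox (6 lower), and all 7 were within 0.2 in both. PSMA5 gave 4.19, 4.44 and 4.49 on the control arrays in the order A, B, C, 4.23, 4.29 and 4.18 on paraoxon, and 4.53, 4.17 and 4.20 on mipafox. The paraoxon values fell within the control range but for 4.18, just under it. PSMA2 gave 5.04, 5.23 and 5.25 in control, 4.94, 5.26 and 4.95 with paraoxon, and 5.16, 5.03 and 4.97 with mipafox, and all groups overlapped. Neither gene passed the test, with adjusted p of 0.77 for PSMA5 with paraoxon and 0.941 for PSMA2 with mipafox in limma. PSMA8, a testis form of an alpha subunit, was well above background on 0 arrays and was not tested.

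In the beta ring, the median of 10 genes was -0.11 with paraoxon (8 lower) and -0.08 with mipafox (8 lower). Of the constitutive catalytic subunits, PSMB5 and PSMB6 had an SD within treatments of 0.12 and 0.15, and PSMB7 of 0.23, where the median of the 46 genes was 0.22. PSMB5, which carries the chymotrypsin-like site, gave 4.68, 4.55 and 4.71 in control, 4.55, 4.66 and 4.63 with paraoxon and 4.80, 4.56 and 4.46 with mipafox. Its log2 fold change was -0.03 with paraoxon and -0.04 with mipafox (SE 0.14 each). PSMB6, the caspase-like subunit, gave 4.84, 4.78 and 4.85 in control, 4.58, 4.68 and 4.81 with paraoxon and 4.99, 4.65 and 4.57 with mipafox. In PSMB6 the differences were -0.13 and -0.08 (SE 0.15 each), and one array of each compound lay above the lowest control array. PSMB7, the trypsin-like subunit, gave 4.96, 5.14 and 5.15 in control, 5.04, 5.11 and 5.04 with paraoxon and 5.40, 4.99 and 4.62 with mipafox. The paraoxon arrays of PSMB7 lay inside the control range, with a difference of -0.02, while mipafox A lay above it and mipafox C below (difference -0.08, SE 0.19 for both).

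With paraoxon the inducible subunits, which take the place of the constitutive ones in the immunoproteasome, did not rise or fall together. Over the mipafox arrays each fell from A to B to C, the order of the median over all proteasome genes. PSMB9 gave -1.44, -1.29 and -1.22 in control, -1.01, -0.80 and -1.28 with paraoxon and -1.09, -1.22 and -1.68 with mipafox. Paraoxon A and B were above every control array and paraoxon C was inside the control range, and the fold change was 0.29 (SE 0.19, adjusted p = 0.586 in limma). PSMB8 gave -3.29, -3.67 and -3.44 in control, -3.44, -3.72 and -3.73 with paraoxon and -2.94, -3.46 and -3.97 with mipafox. Its changes were -0.16 with paraoxon and 0.01 with mipafox (SE 0.24 each), and the mipafox arrays spanned more than the whole control range. PSMB10 gave 1.68, 1.76 and 1.64 in control, 1.40, 1.36 and 1.87 with paraoxon and 2.09, 1.50 and 1.01 with mipafox. For PSMB10 both changes were negative, -0.15 and -0.16 (SE 0.26 each), and again mipafox A was the highest array and mipafox C the lowest. Without mipafox C the change of PSMB10 with mipafox was 0.10, and without mipafox A it was -0.44.

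**Figure D4:**
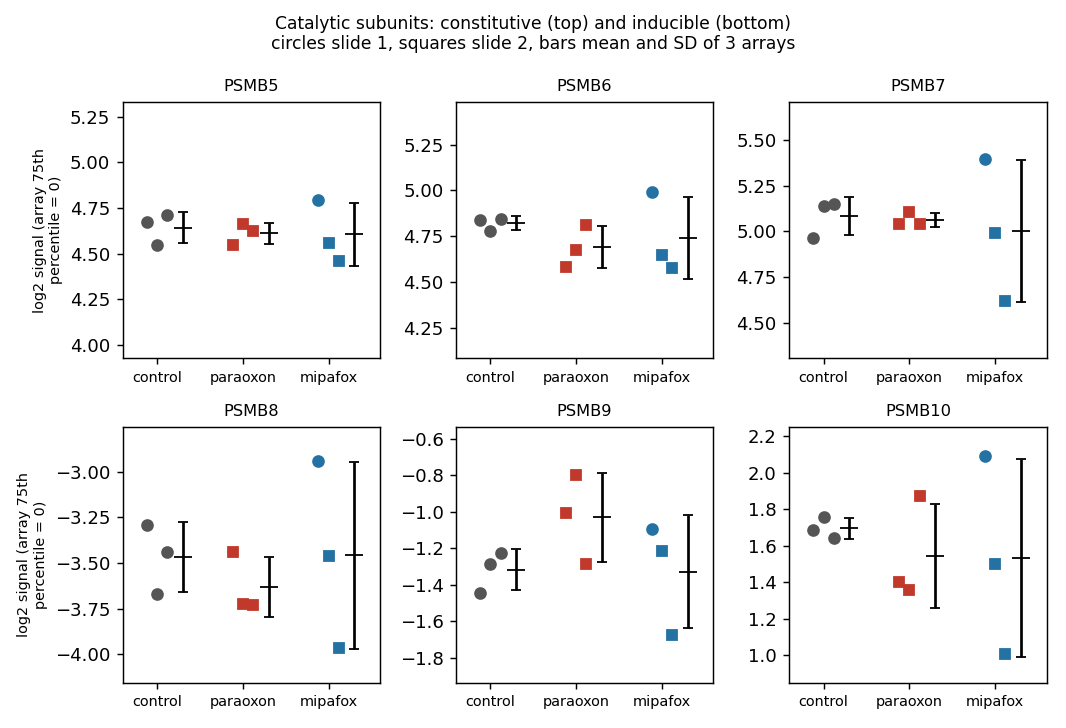
Signal of the 3 constitutive (top) and 3 inducible (bottom) catalytic subunits by treatment, in log2 units relative to the 75th percentile of the array, with circles for arrays on slide 1, squares for slide 2 and black bars for mean and SD of 3 arrays; each panel spans the same height. Mipafox A (the blue circle) is the highest mipafox array in every panel, and only for PSMB9 are as many as 2 paraoxon arrays above all control arrays.

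Of the other beta subunits, PSMB3 had the lowest unadjusted p with mipafox. It gave 3.52, 3.68 and 3.66 in control, 3.23, 3.68 and 3.55 with paraoxon and 3.45, 3.10 and 3.39 with mipafox. The mipafox arrays were all below the control arrays, with a log2 fold change of -0.31 (SE 0.16, adjusted p = 0.799 in limma). PSMB11, the thymus-specific catalytic subunit, had probes that were well above background on 3 and 0 arrays and was not tested.

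Among the ATPases of the cap, PSMC4 had the lowest p of the 46 genes with paraoxon. PSMC4 gave 1.73, 1.46 and 1.46 in control, 1.14, 1.12 and 1.07 with paraoxon and 1.30, 1.44 and 1.69 with mipafox. The paraoxon arrays were the lowest 3 of the 9 and differed among themselves by less than the control arrays did. The log2 fold change was -0.44 (SE 0.15) with paraoxon, with an adjusted p of 0.243 in limma, and -0.07 (SE 0.15) with mipafox. Within slide 2 the paraoxon mean of PSMC4 was lower than the mean of mipafox B and C by a log2 value of -0.46, and on slide 1 the difference of mipafox A from the control mean was -0.25.

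PSMC5, another of these ATPases, was the most variable gene, with an SD of 0.47 within treatments. It gave 0.95, 1.21 and 1.42 in control, 1.62 on paraoxon B against 0.15 on paraoxon C and 1.17 on paraoxon A, and 1.20, 0.76 and 0.96 with mipafox. Its difference of -0.21 with paraoxon (SE 0.33) rested on paraoxon C: without that array it was 0.20, and without paraoxon B it was -0.53. Over the 6 ATPases the median was -0.11 with paraoxon (4 lower) and -0.09 with mipafox (5 lower).

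The 14 non-ATPase genes of the cap and its chaperones had a median of -0.04 with paraoxon (8 lower) and -0.02 with mipafox (8 lower). PSMD4, a receptor for ubiquitin chains, gave 4.88, 4.92 and 4.90 in control, 4.81, 4.87 and 5.06 with paraoxon and 5.37, 5.02 and 4.86 with mipafox. The control arrays of PSMD4 were the tightest of the 3 groups, and mipafox A alone stood far above them, with a fold change of 0.19 (SE 0.16, adjusted p = 0.902 in limma). PSMD3, a scaffold subunit of the lid, gave 1.81, 1.70 and 1.84 in control, 1.66, 1.74 and 1.12 with paraoxon and 1.68, 1.62 and 1.91 with mipafox. The fold change of PSMD3 with paraoxon was -0.28 (SE 0.18, adjusted p = 0.569), and without paraoxon C it was -0.09. PSMD12 had the smallest SD within treatments of the 46 genes, 0.10.

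The activators bind the ends of the core in place of the cap. PSME1, a subunit of the interferon-inducible activator, gave -0.18, -0.35 and -0.47 in control, -0.30, -0.70 and -0.55 with paraoxon and -0.06, -0.25 and -0.81 with mipafox, and its fold change was -0.18 with paraoxon and -0.04 with mipafox (SE 0.21 each). PSME3, the nuclear activator, gave 1.02, 0.42 and 0.49 in control, 0.58, 0.19 and 0.91 with paraoxon and 0.50, 1.26 and 1.103 with mipafox. Mipafox B and C exceeded every control array and mipafox A did not. The fold change of PSME3 was 0.31 with mipafox (SE 0.26, adjusted p = 0.9 in limma) and -0.08 with paraoxon. Over 4 activators, all 4 were lower with paraoxon (median -0.08) and 3 were higher with mipafox (median 0.11). This used the brightest probe of PSME4, at -0.09 and 0.16, while its other tested probe was at 0.18 with paraoxon and -0.15 with mipafox (SE 0.16 and 0.15 for the probes).

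The inhibitor PSMF1, which binds the core and competes with activators, gave 0.58, 0.70 and 0.64 in control, 0.74, 0.58 and 0.88 with paraoxon and 0.78, 0.78 and 0.56 with mipafox at its brightest probe, with differences of 0.09 and 0.07 (SE 0.14 each). The 4 chaperones that assemble the core had negative fitted changes with both compounds, with medians of -0.07 and -0.06. With mipafox, leaving out a single array turned the change positive in PSMG1 (0.13), PSMG2 (0.20) and PSMG4 (0.32) but not in PSMG3. With paraoxon the change turned positive in PSMG2 (0.14) and PSMG4 (0.11) but not in PSMG1 or PSMG3. PSMG1 gave 5.10, 5.27 and 5.10 in control, 4.97, 5.11 and 5.14 with paraoxon and 5.55, 5.02 and 4.57 with mipafox. PSMG2, its partner in the alpha ring chaperone, gave 0.71, 1.00 and 1.20 in control, 0.99, 1.23 and 0.58 with paraoxon and 0.56, 0.95 and 1.38 with mipafox. The partners ran in opposite order over the mipafox arrays, with PSMG1 highest on A and PSMG2 highest on C. PSMG3 gave 2.43, 2.68 and 2.84 in control, 2.53, 2.67 and 2.11 with paraoxon and 2.56, 2.33 and 2.31 with mipafox, and had the largest differences of the 4, -0.21 and -0.25 (SE 0.19 each). The value of PSMG3 with paraoxon was -0.05 without paraoxon C and -0.33 without paraoxon B. PSMG4 had a tested probe with a change of -0.05 with paraoxon and -0.01 with mipafox (SE 0.29 each), and its remaining probes were well above background on 0 and 4 arrays.

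In 11 of the 46 genes more than 1 probe was tested, which gives the ratio of an upstream probe to a downstream one on the same array. The probes of PSMA1 and those of PSMD10 are annotated to different transcripts of the gene, so their ratios may mix transcripts. PSMD2, a scaffold of the cap base, showed the widest gap between its probes. Its upstream probe gave 2.01, 1.91 and 1.90 in control, 1.33, 1.30 and 0.60 with paraoxon and 1.74, 1.07 and 1.19 with mipafox. All exposed arrays were below all control arrays there, with fold changes of -0.87 (SE 0.24, adjusted p = 0.156 in limma) and -0.61 (SE 0.24, adjusted p = 0.652). On slide 1, mipafox A differed from the control mean by -0.20 at this probe. Within slide 2, paraoxon differed from the mean of mipafox B and C by -0.06. Between the slides, mipafox B and C differed from mipafox A by -0.60, and the part of the slide was not tested. The downstream probe of PSMD2 gave 5.46, 5.78 and 5.71 in control, 5.57, 5.66 and 5.48 with paraoxon and 6.04, 5.71 and 5.38 with mipafox, with changes of -0.08 and 0.06, and the groups overlapped.

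The log2 ratio of the upstream to the downstream PSMD2 probe, set to 0 at the control mean, was 0.26, -0.17 and -0.10 in control, -0.53, -0.65 and -1.17 with paraoxon and -0.59, -0.92 and -0.48 with mipafox. Its difference from control was -0.78 with paraoxon and -0.66 with mipafox. The two-sided exact permutation test gave p = 0.1 for both, the smallest that 3 against 3 arrays allow, and 0.44 after adjustment over 22 such tests. In PSMD5, a chaperone of the cap base, the upstream probe gave -2.84, -3.03 and -3.13 in control, -3.40, -3.38 and -3.76 with paraoxon and -3.37, -3.22 and -3.21 with mipafox. The upstream PSMD5 probe was lower on all exposed arrays, by -0.51 (SE 0.15, adjusted p = 0.191 in limma) with paraoxon and -0.27 with mipafox, while the downstream probe changed by 0.11 and 0.07. The ratio of the PSMD5 probes differed by -0.63 with paraoxon (exact permutation p = 0.1) and -0.33 with mipafox (p = 0.2). For PSMF1 the ratio of the outermost probes differed by -0.51 and -0.39 (exact p = 0.2 each), and paraoxon C alone was at -1.25.

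In 5 further genes the probes differed in sign in a comparison, each by a fold change that did not pass the test. PSMD10, a chaperone of the cap base, changed by 0.20 with paraoxon and -0.11 with mipafox at its brightest probe (SE 0.26) and by -0.15 and -0.51 at the other (SE 0.27). PSMD1, a scaffold of the cap base, changed with paraoxon by 0.17 at the brightest probe and -0.10 at the other. PSMB2, a core subunit without a cutting site, changed by 0.01 with both compounds at the brightest probe and by -0.13 and -0.16 at the other. PSMA1, of the alpha ring, changed with mipafox by 0.00 at the brightest probe and -0.13 at the other, whose SE was 0.44. PSME4 was the fifth, with the values given among the activators.

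A lower upstream signal was also found across the other genes with several probes. The upstream probe was lower relative to the downstream probe in 9 of 11 proteasome genes (81.8%) with paraoxon and 8 of 11 (72.7%) with mipafox, PSMA1 and PSMD10 included. Among 3995 genes with several tested probes on a strand, proteasome genes included, the upstream probe was lower for 74.2% with paraoxon and 73% with mipafox. The median difference was -0.26 and -0.13 in the proteasome genes and -0.22 and -0.17 in all such genes. By array, the median over all such genes was 0.07, -0.04 and -0.03 in control, -0.14, -0.16 and -0.32 in paraoxon, and -0.14, -0.20 and -0.19 in mipafox. Paraoxon C, where PSMC5 and PSMD3 were also lowest, had the lowest value of the 9 arrays. The methods state a common RNA integrity minimum for all samples, and the part of RNA quality in these ratios was not tested.

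**Figure D5:**
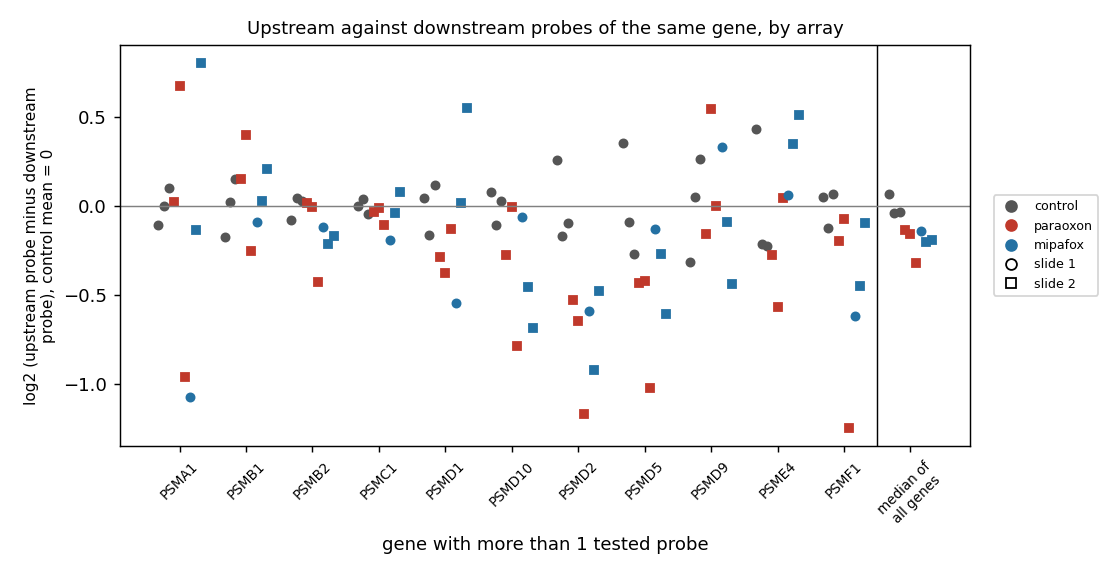
Log2 ratio of the most upstream to the most downstream tested probe on each array (vertical axis, control mean set to 0) for the 11 proteasome genes with more than 1 tested probe and, right of the line, the median of 3995 genes; grey, red and blue are control, paraoxon and mipafox, circles slide 1 and squares slide 2. The exposed arrays of PSMD2 all lie below its control arrays, from -0.48 to -1.17, and the median of all genes is also lower on every exposed array than on every control array.

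Genes that act with the proteasome were examined from a list of 31, of which 29 were on the array and 28 were tested. By limma 0 of the 28 passed the adjusted threshold with either compound. At an unadjusted p under 0.05, 0 were higher and 1 lower with paraoxon and 0 with mipafox, against 13.3% and 6.96% of all tested probes in either direction, and the medians were -0.06 and -0.01. NFE2L1, the regulator of subunit genes, gave 2.35, 2.42 and 2.42 in control, 2.50, 2.52 and 2.35 with paraoxon and 2.63, 2.42 and 2.28 with mipafox, with changes of 0.06 and 0.05 (SE 0.14 each). DDI2, the protease that activates NFE2L1, was the lower gene with paraoxon, at -4.85, -5.42 and -5.76 in control, -5.80, -7.66 and -8.17 with paraoxon and -6.38, -6.16 and -6.50 with mipafox. The DDI2 probe was dim, well above background on 6 of 9 arrays but neither on paraoxon B nor on paraoxon C, so that the size of its change was not measured, and it did not pass the test (adjusted p = 0.165 in limma). POMP, the maturation factor of the core, changed by 0.09 and -0.06, and the cap-associated ubiquitin receptor ADRM1 by -0.30 and 0.01. NFE2L2, a second regulator of subunit genes under oxidative stress, was well above background on 0 arrays and was not tested.

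Genes of antigen presentation and interferon response that rise with the immunoproteasome formed a further list of 14, all tested. By limma 0 passed the adjusted threshold with either compound, and 0 passed an unadjusted p under 0.05, against 13.3% and 6.96% of all tested probes. The list medians were -0.01 with paraoxon and 0.06 with mipafox. TAP1, the peptide transporter gene that neighbours PSMB9, changed by 0.13 and 0.16 (SE 0.13 each), and IRF1, an interferon-induced transcription factor, by -0.37 and -0.33 (SE 0.24 each).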

How the data were processed

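RNA of 9 NT2 samples was measured on one-colour 60-base arrays. Per the labels, the scanner output came from Agilent Feature Extraction 10.5.1.1; the deposited processed signal is an intensity on a linear scale, background-corrected by that software. The authors also deposited a table of normalized log2 values, used as an alternative. Here log2 of the processed signal minus the 75th percentile of each array was taken, without control spots and outlier-flagged spots, and replicate spots were combined to their mean. That percentile lay between 802 and 1590 intensity units. A probe was tested if, in 1 treatment or more, all its arrays were well above background, and if each treatment kept 2 values or more. limma 3.58.1 (R 4.3.3) fitted all 9 arrays together with a coefficient for each treatment, and p-values were adjusted by Benjamini-Hochberg over 29134 probes. Precision is limited by having 3 arrays per treatment. The procedure was tested on simulated data. Ratios of probes were compared by two-sided exact permutation tests.

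The members and gene lists were chosen with earlier results of these data known. Of 64 accessions, 63 matched the same symbol in RefSeq, and 21 member genes have annotated pseudogenes there, whose transcripts a probe may share. Values per array are given for the catalytic subunits, PSMG1 to PSMG4 and, in each class, the gene with the lowest p with each compound; probes of a gene are given apart where their changes differ in sign or by over 0.5. PSMD1, PSMD11, PSMD12, DDI2, PTPRC, TAP1, IRF1, POMP and ADRM1 were named after their values were seen. Alternatives (25 planned, 1 added) covered normalization, background, filters, slide, replicate block, array weights and omission of single arrays.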

Additional observations from a re-analysis of the deposited data

How the results depend on the processing

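The count of proteasome probes called, 0 in each comparison, was 0 under every alternative that kept the adjusted p and the fold change limit, including each array left out in turn (lowest 0, highest 0). Over all probes the count reached 276 with paraoxon when fitted on the 2 treatments alone, and 671 and 800 with array weights. Array weights without the fold change limit, chosen after seeing the data, called 3 proteasome probes with paraoxon (PSMC4 and the upstream probes of PSMD2 and PSMD5) and 4 with mipafox (PSMB3, PSME3, and the upstream probes of PSMD2 and PSMD10), which is 5.08% and 6.78% against 13.8% and 19.8% of all probes. At an unadjusted p under 0.05 in limma, 3, 1 and 1 of 59 proteasome probes passed with paraoxon, with mipafox and between them. These shares were 5.08%, 1.69% and 1.69%, against 13.3%, 6.96% and 4.02% of all tested probes. The median over the 46 genes moved to 0.2299 with paraoxon and 0.1483 with mipafox with the slide as a fixed block. In that fit the mipafox value of a gene is mipafox A minus the control mean on slide 1. The paraoxon value adds to this the difference of paraoxon from mipafox B and C on slide 2. Both values therefore depend on mipafox A, the only exposed array on slide 1. With paraoxon the median also turned from -0.0783 to 0.0285 with the authors' processed values and 0.0024 with the slide as a random block. With single arrays left out it ranged from -0.0803 to -0.03 with paraoxon, from -0.109 to 0.0767 with mipafox, the highest without mipafox C, and from -0.0915 to 0.0812 between them. Of 920 values of the 20 named genes under alternatives, 88 changed sign, and in 0 of these were both values beyond their SE. With the replicate block the medians were -0.0783 and -0.0526 with 0 probes called; same-lettered arrays correlated between -0.60 and 0.57 in their deviations, so the letters were not taken as pairs. All tested proteasome probes were well above background on every array. With the same 3 arrays per treatment, the SE in the fit without the slide ran from 0.12 for a PSMC1 probe to 0.44 for a PSMA1 probe.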

Other observations

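Over the 9 arrays, 35 of 46 proteasome genes correlated positively with the per-array median of the group, of which each is a part. The genes most like it were PSMD7, PSMB7, PSMG1, PSMD9 and PSMB4, with Pearson r of 0.96, 0.95, 0.93, 0.88 and 0.88 and Spearman rho of 0.93, 0.93, 0.82, 0.85 and 0.70. PSME3 was the least like it (r = -0.63, rho = -0.70). The arrays share slides and treatments, so these values are a description.

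RefSeq promoters of 300 bases were at hand for 40 of the 46 genes. The antioxidant response core TGACNNNGC, on either strand, was found in 13 of the 40 (32.5%), against 13.5% of 27305 promoters, and CCAAT in 17 (42.5%), against 35.6%. A match is a description of letters and not of a bound site. The matched windows of 5 of the 13 genes, chosen after their values were seen, are shown in the orientation of the core, on build GRCh38.p14, with the core in capitals; PSMD3 holds a second match that is not shown.
PSMB3, chr17:38752627-38752655, plus strand: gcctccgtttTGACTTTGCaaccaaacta
PSMB9, chr6:32854034-32854062, minus strand: ccgagacaagTGACGAGGCagccccgccc
PSMC4, chr19:39971182-39971210, minus strand: tcctccatagTGACCAAGCcggcctctgt
PSMD3, chr17:39980760-39980788, plus strand: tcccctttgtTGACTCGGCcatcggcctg
PSMD5, chr9:120843038-120843066, minus strand: tggctacagtTGACACGGCcctaacggag
These genes had log2 fold changes of -0.13, 0.29, -0.44, -0.28 and 0.11 with paraoxon at their brightest probes, and none passed the test. The upstream probe of PSMD5 was at -0.51 (SE 0.15) with paraoxon and did not pass either. The other matched genes, at their brightest probes with paraoxon, were PSMD1 (0.17), PSMD9 (-0.08), PSMD12 (0.07) and PSME1 (-0.18). To these add PSME2 (-0.04), PSME4 (-0.09), PSMG1 (-0.08) and PSMG2 (-0.04).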
